A study of Homo sapiens with 6 samples.

Results

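Amino acid transporters are membrane proteins of the solute carrier (SLC) families that move amino acids into and out of cells. Several of them work as pairs, in which a glycosylated heavy chain carries a light chain to the plasma membrane and the light chain forms the path for the substrate. Tumor cells use them to take in glutamine, leucine and cystine, and the leucine that they import is a known input to mTOR signaling. Some of these genes are known targets of MYC and of ATF4, the transcription factor of the response to amino acid shortage.

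The 10 genes described are SLC3A2, SLC7A5, SLC7A8, SLC7A11, SLC7A1, SLC1A4, SLC1A5, SLC38A1, SLC38A2 and SLC43A1, out of 23228 genes in the deposited tables. They were chosen by name with the difference between the groups of this study already known, so that difference is given for them as a description, with its error and without a test. The RNA came from HEC-1-A, an established line of human endometrial adenocarcinoma, grown in McCoy's 5A medium with serum. The control group (n = 3) received vehicle, although its labels name the medium alone, and the treated group (n = 3) was exposed for 24 h to 20 µM SMIP34, an inhibitor of the coregulator PELP1. The labels do not say whether replicates were separate cultures, so the spread between them may be technical, and the results hold for this single line. The libraries held between 19562711 and 22014835 counts on genes, and 15965 to 16881 genes had a count, with the highest number in control replicate 1. All 8 epithelial markers checked, among them EPCAM and KRT8, were above 5 CPM in every library. CPM are counts scaled to the library total over the genes tested, adjusted by TMM as described below. Of 9 markers of immune, endothelial, stromal and muscle cells, 6 stayed under 1 CPM in every library and CD3E was at 0 throughout. COL1A1 ran from 2.71 to 4.53 CPM, CD68 from 0.770 to 1.76 CPM and DES from 0.647 to 1.39 CPM. The summed level of the 9 ran from 4.92 to 6.54 CPM in control and from 6.43 to 6.84 CPM in SMIP34-treated cells. In bulk libraries, fewer cells with an mRNA and less of that mRNA per cell cannot be told apart.

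The starts of these genes are shown first, because some of them hold the letters that MYC (the E-box) and ATF4 (the C/EBP-ATF element), each with a partner, are known to bind. RefSeq windows on GRCh38.p14, each from 250 bases before to 50 bases after an annotated start, matched 9 of the 10 genes, all but SLC7A11, with 19 windows in all. The E-box CACGTG reads the same on both strands and lay in 1 window each of SLC7A5, SLC7A8, SLC1A5 and SLC43A1, that is in 4 of the 19 windows, against 7.26% of all 35116 windows, and in 4 of the 9 genes, against 8.77% of all 27305 genes with a window. The 9 genes have more windows per gene than all genes do, and more windows give more room for a match. The shares of genes, here and for the motifs below, are therefore not like for like. SLC7A5 has a single window, and the 250 bases before its start (chr16:87869508-87869757, minus strand) are 79.6% G or C, with the E-box in capitals.
SLC7A5: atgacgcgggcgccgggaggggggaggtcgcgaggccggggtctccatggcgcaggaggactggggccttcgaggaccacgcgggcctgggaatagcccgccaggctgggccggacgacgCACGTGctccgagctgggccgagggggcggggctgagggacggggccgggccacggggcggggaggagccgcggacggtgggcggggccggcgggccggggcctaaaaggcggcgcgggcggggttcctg

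The core of the C/EBP-ATF element, TGATGNAA on either strand, lay in 5 of the 19 windows, against 3.62% of all windows, and in 5 of the 9 genes, against 4.46% of all genes. Stretches of 30 bases around each match follow in the direction of the gene, with the match in capitals, and they let a reader compare the letters among the genes. The match began at position 38 in SLC3A2, 8 in SLC7A1, -4 in SLC38A1, -7 in SLC1A4 and -97 in SLC1A5, counted from the annotated start of that window, and those of SLC3A2 and SLC1A4 are on the opposite strand.
SLC3A2 (chr11:62881719-62881748, plus strand): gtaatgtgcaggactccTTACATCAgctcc
SLC7A1 (chr13:29595663-29595692, minus strand): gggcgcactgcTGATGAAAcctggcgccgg
SLC38A1 (chr12:46266502-46266531, minus strand): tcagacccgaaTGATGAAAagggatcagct
SLC1A4 (chr2:64989381-64989410, plus strand): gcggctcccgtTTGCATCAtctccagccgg
SLC1A5 (chr19:46784893-46784922, minus strand): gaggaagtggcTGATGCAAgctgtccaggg

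The log2 fold changes of the 5 genes with these letters, given below, were -0.57 in SLC1A4, -0.27 in SLC1A5, -0.13 in SLC38A1 and SLC7A1, and 0.092 in SLC3A2. The windows of SLC7A5, SLC7A8, SLC38A2 and SLC43A1 hold none, SLC7A11 had no window, and bases outside the windows were not searched. A link between the letters and the differences was not tested. The core of the antioxidant response element, TGACNNNGC on either strand, was in a window of SLC7A5, SLC7A1, SLC3A2 and SLC1A5, that is in 4 of the 19 windows and 4 of the 9 genes, against 13.3% of all windows and 16.1% of all genes. A match is a description of the letters and not a binding site.

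SLC3A2 (chromosome 11, from 62623484 to 62656355, on hg19, the build of the counts and of the gene positions that follow) encodes the heavy chain 4F2hc, also called CD98, with which SLC7A5, SLC7A8 and SLC7A11 form transporters. It stood at 214, 213 and 211 CPM in control replicates 1, 2 and 3 and at 225, 229 and 225 CPM in SMIP34 replicates 1, 2 and 3. Each treated library was above each control, and SLC3A2 was the only one of the 10 genes with a log2 fold change above 0, at 0.092 (standard error 0.028), an increase of 6.58%.

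SLC7A5 (chromosome 16, from 87863629 to 87903100) encodes LAT1, the light chain that imports leucine and other large neutral amino acids. It was at 197, 204 and 209 CPM in control and at 134, 133 and 135 CPM in SMIP34-treated cells. The groups lay far apart compared with their own spread, with means of 203 ± 6.44 and 134 ± 0.805 CPM (SD, n = 3 each) and a log2 fold change of -0.60 (standard error 0.031). The spread of the treated libraries, 0.600% of their mean, was under the 1.85% that counting error alone gives at this depth. Near-identical copies of SLC7A5 are annotated on the same chromosome, and reads that mapped to several places had been divided. The copy SLC7A5P2 (from 21529230 to 21531765) had a mean of 4.50 ± 0.332 CPM without and 5.28 ± 0.252 CPM with SMIP34 (SD, n = 3 each), and SLC7A5P1 was at 0.853 and 0.875 CPM. With the counts of both copies added to those of SLC7A5, its log2 fold change was -0.57.

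SLC7A8 (chromosome 14, from 23594504 to 23652849) encodes LAT2, a light chain that exchanges small and large neutral amino acids. Its mRNA was rare, with 27, 37 and 26 counts in control and 12, 18 and 9 counts in SMIP34-treated cells. These are 1.39, 1.70 and 1.25 CPM against 0.547, 0.832 and 0.416 CPM, so the groups did not overlap, and each is known only roughly. The 90 counts of the control libraries together have an exact Poisson interval (95%, counting error only) of 72.4 to 111, and the 39 counts of the treated libraries one of 27.7 to 53.3. The log2 fold change was -1.27 (standard error 0.31), which without SMIP34 replicate 2 was -1.58 and without SMIP34 replicate 3 was -1.07.

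SLC7A11 (chromosome 4, from 139085248 to 139163503) encodes xCT, the light chain that takes up cystine in exchange for glutamate and so feeds glutathione synthesis. Its values were 75.5, 73.3 and 81.8 CPM in control and 48.5, 48.9 and 48.7 CPM in SMIP34-treated cells. The treated libraries were nearly level with each other and all below the lowest control. Their spread, 0.350% of their mean, was under the 3.07% that counting error alone gives at this depth. The log2 fold change was -0.66 (standard error 0.044), a change of -36.6%. LOC641364 overlaps SLC7A11 on the opposite strand, and the reads had been counted by strand.

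**Figure D1:**
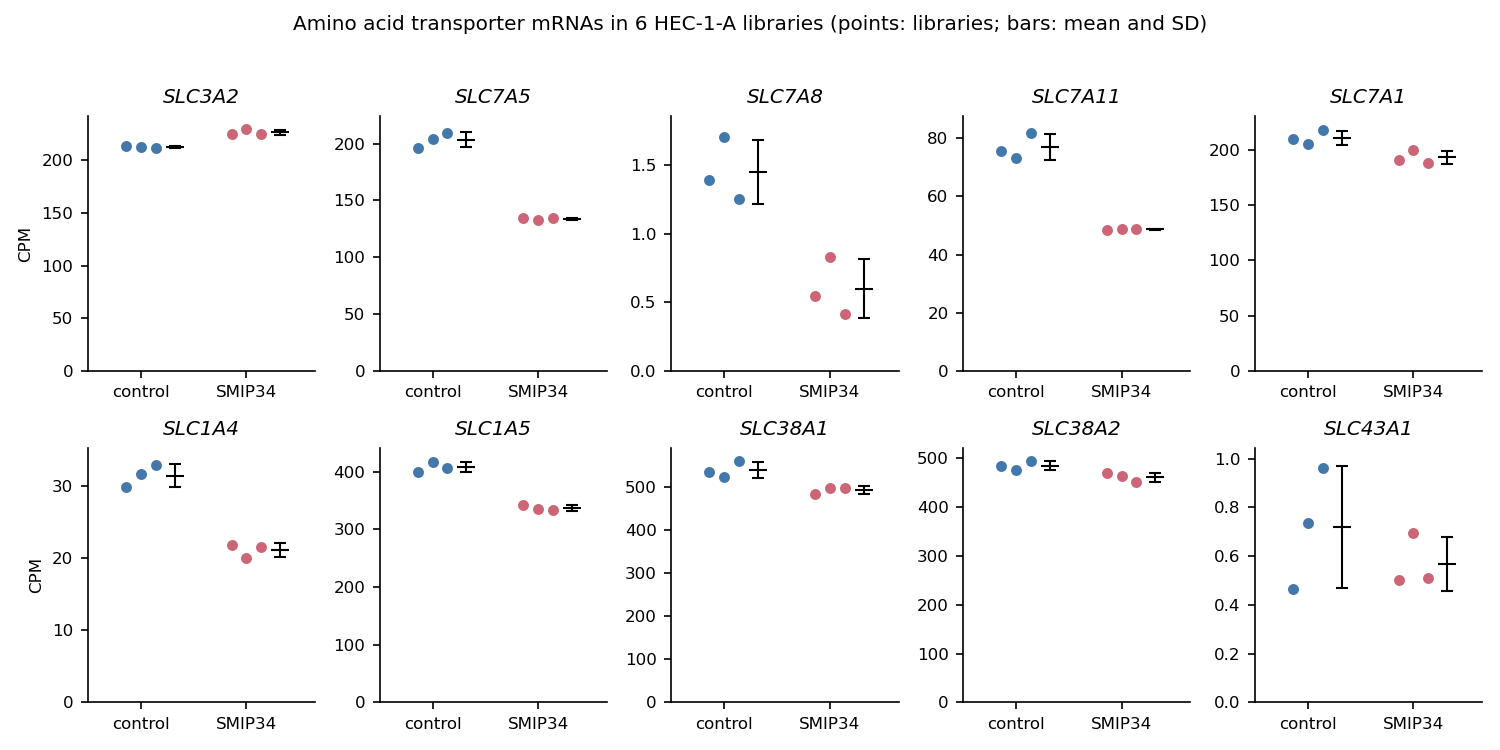
CPM (linear axes from 0) of the 10 transporter mRNAs in the 3 control and 3 SMIP34 libraries, with points for libraries in replicate order and bars for mean and SD. SLC7A5, SLC7A11, SLC1A4 and SLC1A5 are lower with SMIP34 by gaps wider than the range within either group. SLC7A8 is lower by a gap narrower than the range of its controls, SLC3A2 is slightly higher with SMIP34, and in SLC43A1 the groups overlap.

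SLC7A1 (chromosome 13, from 30083551 to 30169825), whose product CAT1 imports arginine, lysine and ornithine without a heavy chain, was at 209, 205 and 218 CPM in control and at 191, 199 and 188 CPM in SMIP34-treated cells. The gap between the groups, from 199 to 205 CPM, was smaller than the range within either group. The log2 fold change was -0.13 (standard error 0.032), and with offsets for gene length, described below, it was -0.20.

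SLC1A4 and SLC1A5 encode ASCT1 and ASCT2, sodium-dependent exchangers of small neutral amino acids, of which ASCT2 is a main route for glutamine. SLC1A4 (chromosome 2, from 65215579 to 65251000) was at 29.8, 31.6 and 32.9 CPM in control and at 21.7, 20.1 and 21.5 CPM with SMIP34 (log2 fold change -0.57, standard error 0.061). SLC1A5 (chromosome 19, from 47278140 to 47291842) was at 400, 417 and 406 CPM in control and at 342, 336 and 333 CPM with SMIP34 (log2 fold change -0.27, standard error 0.027). In both genes every treated library was below every control, and the proportional difference was -32.9% in SLC1A4 and -17.3% in SLC1A5.

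SLC38A1 and SLC38A2 encode SNAT1 and SNAT2, which carry glutamine and other small neutral amino acids together with sodium, and SNAT2 is known to be induced when amino acids are short. SLC38A1 (chromosome 12, from 46576841 to 46663208) was at 533, 522 and 559 CPM in control and at 482, 496 and 498 CPM with SMIP34 (log2 fold change -0.13, standard error 0.028). SLC38A2 (chromosome 12, from 46751971 to 46766645) was at 483, 476 and 495 CPM in control and at 469, 464 and 451 CPM with SMIP34 (log2 fold change -0.072, standard error 0.027). The groups of these neighbouring genes did not overlap, but the highest treated library of SLC38A2, at 469 CPM, was close to the lowest control, at 476 CPM. With offsets for gene length the log2 fold change of SLC38A1 was -0.22. Counts of SLC38A2 were fractional in 5 of the 6 libraries, from reads shared with other places or genes.

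SLC43A1 (chromosome 11, from 57252004 to 57283192) encodes LAT3, a carrier of branched-chain amino acids that needs no heavy chain. It had 9, 16 and 20 counts in control and 11, 15 and 11 counts in SMIP34-treated cells, and the groups overlapped. A difference was not detectable at this depth (log2 fold change -0.35, standard error 0.37), and the value was -0.57 without control replicate 1 and -0.095 without control replicate 3.

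All 10 genes passed the filter on low counts, and 9 of them had a log2 fold change below 0. In the fit across all 13408 genes with edgeR's quasi-likelihood test, 8 of the 10 had a lower level and an adjusted p-value under 0.05 (17.2% of all genes tested did) and 1 a higher level (17.4% of all genes). With a log2 fold change beyond 0.5 as well, 4 of the 10 were called, against 3.31% of all genes tested, and these 4 were all lower, as were 1.87% of all genes (1.44% were higher). The 3 control and 3 treated CPM values did not overlap in 8 genes that were lower and 1 that was higher, against 21.9% and 22.6% of all genes. The genes were chosen with these values known, so nothing is read from the counts. The median log2 fold change was -0.31 over the 10 genes and -0.0022 over all genes tested.

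**Figure D2:**
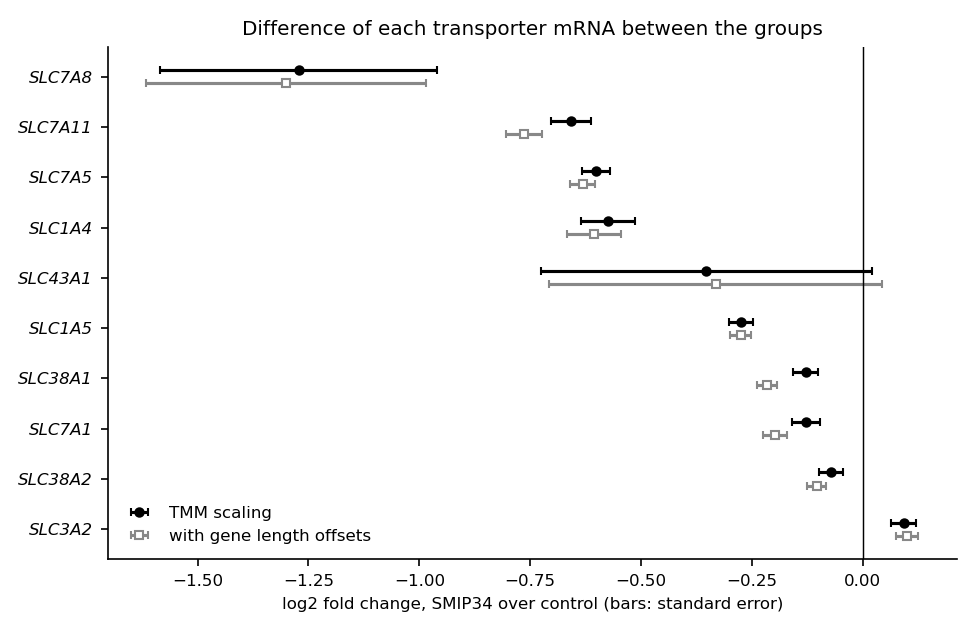
Log2 fold change of SMIP34 over control for each of the 10 mRNAs, with bars for the standard error, from the main scaling (filled circles) and with offsets for gene length (open squares). SLC7A8, SLC7A11, SLC7A5 and SLC1A4 lie below -0.5 and SLC3A2 lies above 0, and the long mRNAs SLC7A11, SLC38A1 and SLC7A1 move further below 0 with the offsets.

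The exons of these genes add up to between 2639 bases in SLC43A1 and 9648 bases in SLC7A11. Length moved with the difference between the groups: when all genes were ranked by exon length and cut into 10 equal groups, the group with the shortest exons had a median log2 fold change of -0.10 and the group with the longest, to which SLC7A11, SLC7A1 and SLC38A1 belong, one of 0.12. After this trend was taken out of each library by offsets, the log2 fold change was -0.76 for SLC7A11 (standard error 0.040), -0.20 for SLC7A1 (0.027) and -0.22 for SLC38A1 (0.023). The other 7 genes moved by less with the offsets, SLC7A5 to -0.63 and SLC3A2 to 0.10.

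To compare levels between genes, CPM were divided by exon length in kilobases (RPKM), without the length offsets. In control cells the order was SLC1A5 (127 RPKM), SLC38A2 (99.2 RPKM), SLC3A2 (73.2 RPKM), SLC38A1 (63.4 RPKM), SLC7A5 (44.8 RPKM), SLC7A1 (28.7 RPKM), SLC7A11 (7.97 RPKM), SLC1A4 (6.58 RPKM), SLC7A8 (0.332 RPKM) and SLC43A1 (0.273 RPKM). The ranges of neighbours in this order did not overlap, except those of SLC7A8 and SLC43A1. In SMIP34-treated cells the order was the same down to SLC1A4, and SLC43A1 (0.215 RPKM) stood above SLC7A8 (0.137 RPKM) with overlapping ranges. SLC7A5 and SLC7A1 came close, at 29.5 ± 0.177 and 26.3 ± 0.814 RPKM (SD, n = 3 each), and the level of SLC7A5 over that of SLC7A1 was 1.56 ± 0.0457 in control and 1.12 ± 0.0410 in SMIP34-treated cells. The summed level of the 10 genes was 452 ± 6.09 RPKM in control and 401 ± 3.27 RPKM in SMIP34-treated cells. SLC7A5 held 9.91 ± 0.194% of that sum in control and 7.35 ± 0.0974% in treated cells, and SLC3A2 16.2 ± 0.306% and 19.4 ± 0.167% (SD, n = 3 each).

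**Figure D3:**
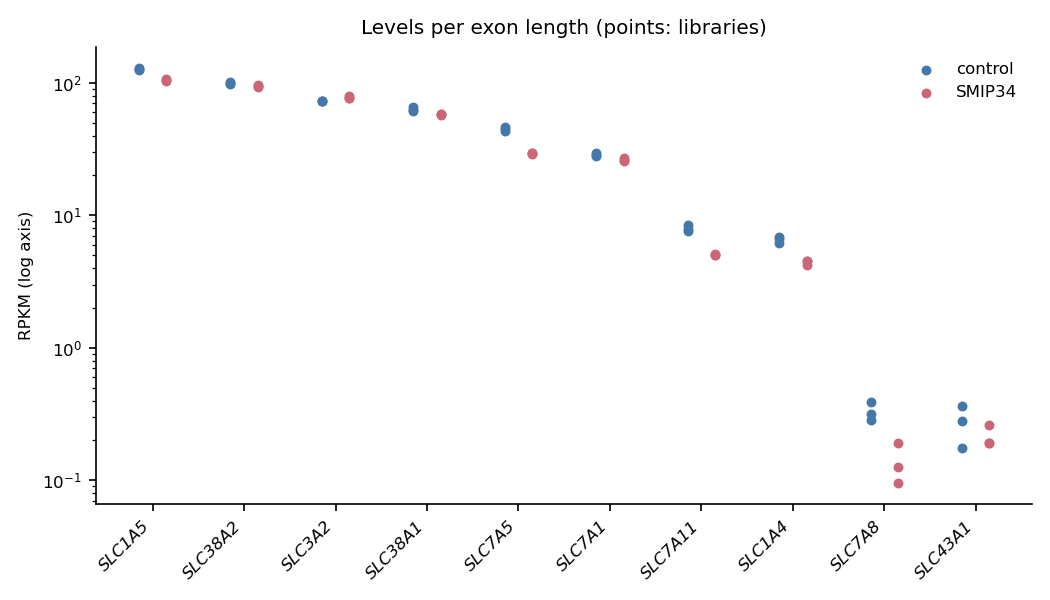
RPKM (log axis) of the 10 mRNAs in each library, ordered by the control mean, with points for the 3 control and 3 SMIP34 libraries. SLC1A5 has the highest level in both groups, 127 RPKM in control and 105 RPKM with SMIP34, and SLC7A8 and SLC43A1 lie far below the other 8 genes.

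SLC3A2 and the light chain genes SLC7A5, SLC7A8 and SLC7A11 had log2 fold changes of opposite sign, and their ratio per length was computed within each library, where scaling between libraries cancels. SLC7A5 over SLC3A2 was 0.588, 0.613 and 0.633 in control and 0.381, 0.371 and 0.382 in SMIP34-treated cells. SLC7A11 over SLC3A2 was 0.106, 0.104 and 0.116 in control and 0.0649, 0.0641 and 0.0651 in treated cells. Neither ratio overlapped between the groups. That outcome was fixed by the CPM above, with SLC3A2 higher and both light chain genes lower in every treated library. The other light chain genes of this heavy chain that had enough counts to be tested had log2 fold changes of 0.24 for SLC7A6, the same sign as SLC3A2, and -0.27 for SLC7A7, which did not pass the test (edgeR, adjusted p = 0.115). With both included, the summed level of light chains over SLC3A2 was 0.780 ± 0.0326 without and 0.496 ± 0.00835 with SMIP34 (SD, n = 3 each). The ratio of SLC38A2 over SLC38A1 did overlap, at 1.57 ± 0.0246 in control and 1.63 ± 0.0582 in treated cells. These ratios rest on the same libraries as the differences above and on exon lengths that sum all annotated exons of a gene. The trend with exon length was not taken out of them, and it does not cancel between genes of unlike length.

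**Figure D4:**
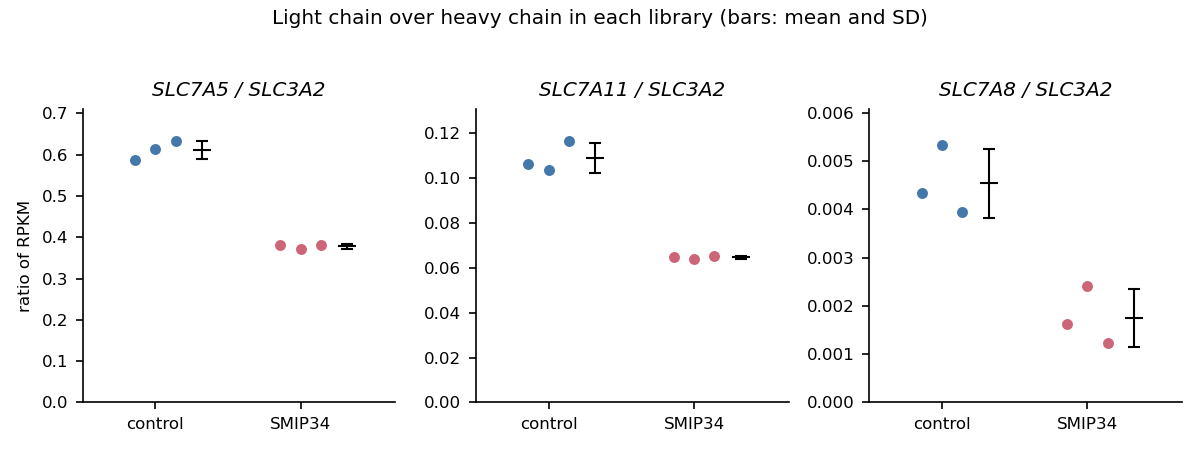
Ratio of the RPKM of SLC7A5, SLC7A11 and SLC7A8 to that of the heavy chain SLC3A2 in each library, on linear axes from 0, with bars for mean and SD. The ratio of SLC7A5 to SLC3A2 had a mean of 0.612 in control and 0.378 in SMIP34-treated cells. None of the 3 ratios overlaps between the groups, which the CPM of these genes fixed in advance.

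Genes with the most similar profile were found by the root mean square difference of log2 CPM over the 6 libraries, each gene set to its own control mean, among 12604 other genes with at least 1 CPM on average. The nearest to SLC7A5 were FOXC1 (difference 0.032), FAM149A (0.037), CDH16 (0.038), SLC1A4 (0.041) and ZNF517 (0.047). The nearest to SLC7A8 were SLC17A1 (0.22), CLDN2 (0.22), KRT13 (0.25), KRT25 (0.27) and VAV3 (0.28), which are much further from it than the former 5 are from SLC7A5. With 6 libraries in 2 groups, this measure mostly reflects the size of the difference between the groups. For SLC7A8 it also reflects counting error, which was 18.3% of the mean in control and 27.7% in SMIP34-treated cells.

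Most of the other amino acid transporters tested did not pass the test. From a list of further plasma membrane, lysosomal and mitochondrial amino acid carriers, 50 were in the tables and 22 had enough counts to be tested with edgeR's quasi-likelihood test. Of these 22, 6 were higher, 3 were lower and 13 did not pass an adjusted p-value of 0.05, so that 40.9% passed, against 34.6% of all genes tested, and their median log2 fold change was 0.049. The share that passed was near that of all genes, of which 17.4% were higher and 17.2% lower. This list was chosen with earlier results of these data known, so its share is given as a description. The fold limit was passed by 2 of the 22, both lower, against 1.87% of all genes that were lower past it. SLC3A1, the heavy chain of the cystine and dibasic amino acid transporter and the closest relative of SLC3A2, was at 23.2, 23.6 and 21.1 CPM in control and at 10.6, 13.4 and 14.3 CPM in SMIP34-treated cells. It fell by 0.82 on the log2 scale (standard error 0.085, adjusted p = 2.9e-08), while its light chain SLC7A9, which was not tested, was at most 0.241 CPM in any library. SLC6A9, the glycine transporter GLYT1, had means of 21.4 ± 1.01 CPM in control and 14.4 ± 0.607 CPM with SMIP34 (SD, n = 3 each) and fell by 0.57 on the log2 scale (standard error 0.072, adjusted p = 7.09e-07). Both heavy chain genes of the SLC3 family were thus measured, with log2 fold changes of opposite sign.

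Among the transporters that rose, SLC6A6, which imports taurine, was at 75.9, 76.1 and 76.3 CPM in control and at 100, 106 and 98.7 CPM with SMIP34 (log2 fold change 0.42, standard error 0.038, adjusted p = 2.04e-09). SLC1A1, a high-affinity importer of glutamate and aspartate, was at 18.3, 17.5 and 19.0 CPM in control and at 23.1, 23.2 and 23.5 CPM with SMIP34 (log2 fold change 0.35, standard error 0.066, adjusted p = 0.00016). In neither gene did the groups overlap. SLC7A6, another light chain of SLC3A2, had a log2 fold change of 0.24 (adjusted p = 0.0379), SLC36A4, a carrier of the PAT family, one of 0.25 (adjusted p = 0.0363) and the mitochondrial carrier SLC25A29 one of 0.21 (adjusted p = 0.0263). These 3 small increases did not pass with DESeq2, and with length offsets SLC7A6 did not pass either (log2 fold change 0.18, adjusted p = 0.109), which left 5 of the 22 higher. The adjusted p-value of SLC7A6 also exceeded the threshold without control replicate 1 or 2 or SMIP34 replicate 1 or 2, reaching 0.185, that of SLC36A4 without any library other than control replicate 1, reaching 0.151, and that of SLC25A29 without control replicate 3 or SMIP34 replicate 1 or 2, reaching 0.112. SLC43A2, the LAT4 relative of SLC43A1, had a log2 fold change of -0.35 (adjusted p = 0.0123), which without control replicate 3 was -0.19 (adjusted p = 0.155).

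Genes of the amino acid response other than transporters were mostly lower. Of 30 tested genes around ATF4, edgeR's quasi-likelihood test called 22 lower and 1 higher at the adjusted p-value of 0.05, 76.7% in all, against 34.6% of all genes, and their median log2 fold change was -0.27. This list too was chosen with earlier results of these data known, so its share describes the genes and does not test them as a set. CHAC1, which degrades glutathione, fell from 14.7 ± 0.65 to 6.48 ± 0.986 CPM (log2 fold change -1.18, adjusted p = 1.27e-09), and NUPR1, a stress-induced chromatin protein, from 17.0 ± 0.628 to 9.46 ± 0.461 CPM (log2 fold change -0.85, adjusted p = 1.24e-08), each with n = 3. ATF4 itself stood at 384, 385 and 378 CPM in control and at 304, 293 and 291 CPM with SMIP34 (log2 fold change -0.37, adjusted p = 4.72e-11). The pseudokinase TRIB3, the leucine sensor SESN2 and the serine synthesis enzyme PSAT1 had log2 fold changes of -0.53, -0.49 and -0.48. The exception was ATF3, a stress-induced transcription factor of the same bZIP family, which was at 7.26, 7.45 and 8.76 CPM in control and rose to 24.2, 26.5 and 24.5 CPM (log2 fold change 1.68, adjusted p = 1.47e-14). With the fold limit, 4 were lower and 1 was higher, against 1.87% and 1.44% of all genes. ALDH1L2, among those 4, a mitochondrial folate enzyme, was under 1 CPM in every library (log2 fold change -1.16, adjusted p = 0.0467). Its adjusted p-value was above the threshold without control replicate 1 or 2 or SMIP34 replicate 1 or 2, up to 0.214 with a log2 fold change of -0.81 without SMIP34 replicate 2, and without a filter on low counts (0.0634). Without SMIP34 replicate 3 its log2 fold change was -1.79. Past the fold limit, 3 genes of the list rather than 4 were lower with DESeq2 and with length offsets, where TRIB3 was at -0.496.

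**Figure D5:**
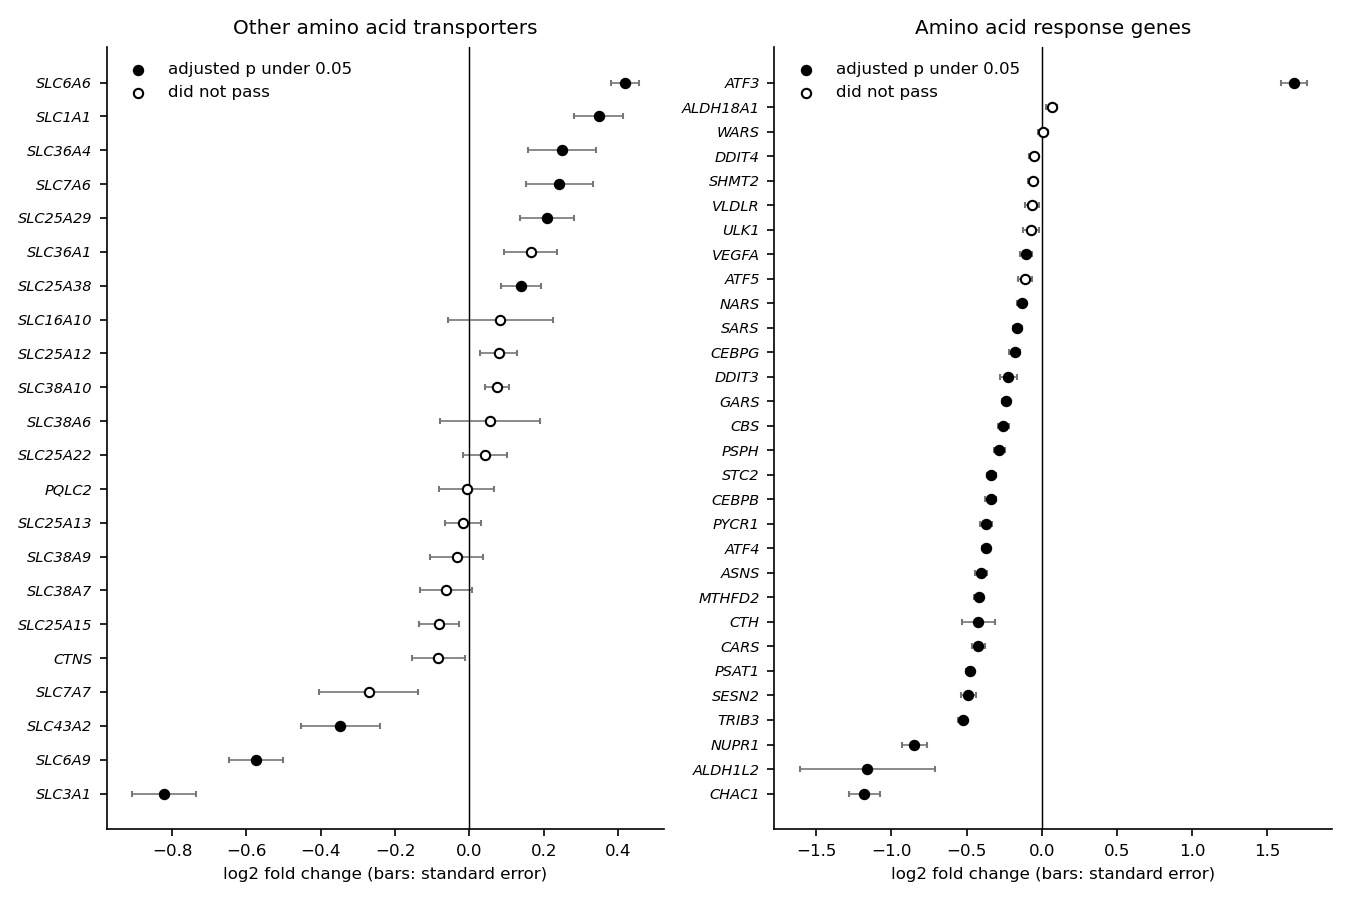
Log2 fold change of SMIP34 over control, with bars for the standard error, for the 22 other amino acid transporters tested (left) and the 30 amino acid response genes tested (right). Filled points have an adjusted p-value under 0.05, which 9 of the transporters and 23 of the response genes reached, and most of the filled points on the right lie below 0.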

How the data were processed

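Stranded mRNA libraries of 6 HEC-1-A samples were grouped by their titles and treatments. The authors deposited estimated counts (fractional read counts per gene) without normalization. Per the file headers, featureCounts v1.5.0-p1 summed reads by strand over exons of the UCSC hg19 annotation and divided reads with several positions or genes into fractions. The submitters' processing notes name HISAT2 for alignment, and the methods of the paper name tophat2 and HTSeq.

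Counts were rounded, filtered with filterByExpr, scaled by TMM and passed to edgeR 4.0.16 for its quasi-likelihood test (newer method) under R 4.3.3, and p-values were adjusted over the 13408 genes by the Benjamini-Hochberg method. Genes were called at an adjusted p-value under 0.05 and, where stated, an absolute log2 fold change over 0.5. Standard errors were derived from the F statistic. Log2 CPM used a prior count of 2. The procedure was tested on simulated data. The members and gene lists were chosen with earlier results of these data known. Named genes were the 10 members, the copies of SLC7A5, the 5 nearest profiles of SLC7A5 and SLC7A8 and, in each list, the 5 largest changes in either direction among genes past the adjusted p-value with at least 1 CPM, and any past the fold limit. ATF4 and the partner genes SLC7A7 and SLC7A9 were named after their values were seen. Promoter sequences were from RefSeq. Alternatives were DESeq2 1.42.0, limma 3.58.1 with voom, other scalings and filters, edgeR's legacy method, a block for the replicate number, length offsets by loess (span 0.3), and leaving out each library. Figures were drawn with matplotlib 3.10.9.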

Additional observations from a re-analysis of the deposited data

How the results depend on the processing

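The log2 fold changes of the 10 transporters kept their sign under every alternative run, and 9 of the 10 were below 0 in each fit that tested all of them. Requiring at least 1 CPM in 3 libraries left SLC43A1 untested. The largest moves were those given with SLC7A8, SLC43A1 and the long mRNAs. The count of genes past both thresholds was 444, and it was 323 with DESeq2, the method named in the paper. It was between 389 and 448 when 1 library was left out, and 4645 without the fold limit. Without that limit, 9 other transporters and 23 amino acid response genes passed, in place of 2 and 5. No call on SLC3A1, SLC6A9, SLC6A6 or SLC1A1 was lost. Libraries with the same replicate number did not deviate together (correlations of -0.028, 0.0334 and -0.0111 across genes), and were not treated as pairs. With the replicate number as a block, 453 genes passed both thresholds, 2 of them other transporters and 4 amino acid response genes, and ALDH1L2 no longer passed. Depth limits SLC7A8 and SLC43A1, with at most 37 counts in any library.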
